A study of Mus musculus with 13 samples.

Results

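The transcript levels of 10 genes that carry serine synthesis, folate-dependent one-carbon metabolism and the ATF4 response were followed in MP EPO-GEMM ovarian tumors and normal mouse ovaries. The genes were taken by their symbols (Phgdh, Psat1, Psph, Shmt1, Shmt2, Mthfd1, Mthfd2, Mthfd1l, Atf4 and Asns) from a deposited table of 53465 genes, and each symbol had 1 row. RNA-seq libraries had been made from polyA RNA of bulk tissue of 3 untreated ovaries of wild-type (WT) C57BL/6 mice and of 10 MP tumors, which carry the genotype label Myc;p53-/- and were not treated with a drug. To make these tumors, the left ovary of WT C57BL/6 females aged 8 to 12 wk was injected with plasmids and electroporated, so that cells took up a transposon that overexpresses MYC and a vector with Cas9 and an sgRNA against Trp53, and tissue was collected at endpoint. Electroporation does not select a cell type, the tumors also hold host cells, and the age of the WT mice at collection was not given in the sources used here. Values are TPM, the deposited transcript abundances, which are scaled by gene length and sum to a fixed total in each library.

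Serine is made from a glycolytic intermediate in a short pathway, in which Phgdh catalyzes the first and committed step, Psat1 transfers the amino group and Psph removes the phosphate. The serine hydroxymethyltransferases Shmt1, in the cytosol, and Shmt2, in mitochondria, then split serine into glycine and a carbon unit carried by folate, and the MTHFD enzymes pass that unit between oxidation states for purine, thymidylate and methionine synthesis. ATF4 is a transcription factor whose translation rises when eIF2 alpha is phosphorylated during amino acid or endoplasmic reticulum stress. It is known to drive the genes of serine synthesis and Asns, which makes asparagine, and its regulation lies largely in translation, which RNA-seq does not measure.

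The promoters of Phgdh, Psat1 and Asns are shown because these genes had the most extreme test statistics of the 10. Each line gives the 120 bases before an annotated start site, 5′ to 3′ on the strand of the gene, from RefSeq on build GRCm38.p6. All of them lie on the minus strand. The Phgdh stretch is chr3:98339970-98340089, the Psat1 stretches, from a pair of annotated start sites, are chr19:15925060-15925179 and chr19:15924623-15924742, and the Asns stretch is chr6:7693210-7693329. Capitals mark a match to TGATGNAAN, the C/EBP-ATF response element through which ATF4 binds as a dimer with a C/EBP protein.
Phgdh: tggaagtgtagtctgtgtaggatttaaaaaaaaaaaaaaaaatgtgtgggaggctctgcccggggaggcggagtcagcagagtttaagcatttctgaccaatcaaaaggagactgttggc
Psat1, upstream start site: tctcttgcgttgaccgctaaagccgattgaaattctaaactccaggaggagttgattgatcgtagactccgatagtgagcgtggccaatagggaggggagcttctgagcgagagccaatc
Psat1, downstream start site: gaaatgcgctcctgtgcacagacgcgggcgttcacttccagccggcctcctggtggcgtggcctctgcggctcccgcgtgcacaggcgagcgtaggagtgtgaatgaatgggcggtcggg
Asns: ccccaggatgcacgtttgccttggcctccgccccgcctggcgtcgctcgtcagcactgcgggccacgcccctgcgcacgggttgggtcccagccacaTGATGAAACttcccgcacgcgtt

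The motif TGATGNAAN was searched on both strands from 250 bases before to 50 bases after each start site. Of the 11 windows of the 10 genes, 1 held it, that of Asns, where TGATGAAAC begins 23 bases before the start site. It occurred in 3.95% of 32851 promoters of the same length. The E-box CACGTG, bound by MYC with MAX, was in 7.15% of these promoters and in 0 of the 11 windows. These are matches of letters in 1 window per start site and do not show binding or its absence. The 250 bases before the start sites of the 10 genes had a GC content between 40.8% and 67.2% (median 59.2%), against a median of 52.4% over all promoters.

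Before the comparison, 3 features of the libraries have to be stated. The submitters' library names carry an IGO number, by which the libraries fall into 3 sets. Set A holds the 3 WT ovaries and MP tumors 1 to 3, set B holds MP tumors 4 to 6 and set C holds MP tumors 7 to 10, so that the IGO number and the tissue can be told apart within set A alone. The WT ovaries held 31445004 to 64013840 reads, worked back from the TPM, and the MP tumors 3892690 to 19906507. In MP tumor 2, the 10 most abundant genes took 55.1% of the TPM, against 7.92% to 20.6% in the other MP tumors, which lowers the TPM of other genes there. The same library had 20.9% of its TPM in CT010467.1 (0.0811% to 1.09% in the other tumors) and 15.4% in mitochondrial genes (0.883% to 5.56%), and the part of these in its low values was not tested. Trp53, the gene targeted by the sgRNA, was at 80.7 to 85.4 TPM in the WT ovaries, at 4.30 to 26.0 TPM in MP tumors 1 to 9 and at 187 TPM in the library labelled MP tumor 10. The row of Myc was at 126 to 129 TPM in the WT ovaries and at 7.09 to 419 TPM in the MP tumors, and whether reads of the transposon count toward it is not given in the sources used here. An edited gene can still be transcribed, so the Trp53 level alone does not settle that label, and results are given with and without these libraries where they matter. The labels do not say that the libraries of a group come from separate animals, so that P values describe the spread between libraries.

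Relative to the WT ovaries, 5 of the 10 genes were higher in MP tumors and 0 were lower (limma on log2(TPM + 1), adjusted over 17277 genes, threshold 0.05). Phgdh and Psat1, which open serine synthesis, Asns, Shmt1 and the mitochondrial Mthfd1l were those called higher. No overlap between the groups was seen for the same 5 genes, since each of the 10 MP tumors exceeded each WT ovary. Over all tested genes, 2.51% were called higher and 14.3% lower, and 3.02% lay above and 16.4% below the WT ovaries without overlap. At an unadjusted P under 0.05, 6 of the genes were higher and 0 lower, against 5.63% and 27.4% of all tested genes, and limma-voom on the reads worked back from TPM called 7 higher and 0 lower, with 15.98% of all tested genes higher. The 10 genes had a median log2 fold change of 1.51 and the whole set of tested genes one of -0.58, and all 10 lay above the latter.

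**Figure D1:**
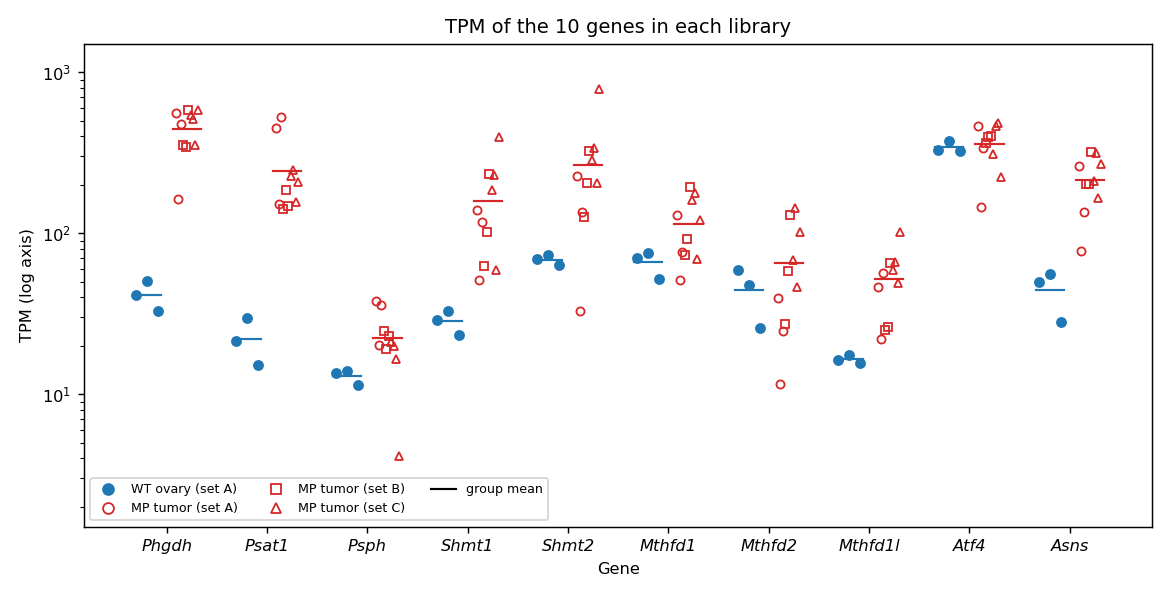
TPM (log axis) of the 10 genes in each library, with WT ovaries as filled circles, MP tumors as open symbols by set and horizontal lines at group means. The MP tumors lie above all WT ovaries for Phgdh, Psat1, Shmt1, Mthfd1l and Asns, while Atf4 overlaps between the groups, with 5 tumors above, 3 below and 2 within the range of the ovaries.

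Phgdh (ENSMUSG00000053398, chr3:98313170-98339990, minus strand) was at 41.1, 50.2 and 33.0 TPM in WT ovaries 1 to 3. In the MP tumors it ranged from 164 TPM in MP tumor 2 through a median of 495 to 587 TPM in the library labelled MP tumor 10. The lowest tumor was thus well above the highest ovary, and the other 9 tumors lay between 345 and 587 TPM. The means were 41.4 ± 8.59 TPM (SD, n = 3) and 447 ± 138 TPM (SD, n = 10), a ratio of 10.8. On the log2 scale the fold change was 3.34 ± 0.36 (SE), with an adjusted P of 1.03e-05 in limma. By this statistic Phgdh ranked 2 from the top of the 17277 tested genes. Phgdh stood at percentile 73.3 of tested genes by mean level in WT ovaries and at percentile 98.4 in MP tumors. Its processed pseudogene Phgdh-ps1, which could share reads with it, was at 0 TPM in all WT ovaries and at most at 0.738 TPM in MP tumors.

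Psat1 (ENSMUSG00000024640, chr19:15904678-15947337, minus strand), the aminotransferase of the pathway, was at 21.5, 29.7 and 15.2 TPM in WT ovaries 1 to 3. The MP tumors ran from 141 TPM in MP tumor 4 through a median of 197 to 525 TPM in MP tumor 3. MP tumors 1 and 3 stood above the rest, since the third highest tumor was at 246 TPM. Psat1 had a log2 fold change of 3.30 ± 0.42 (SE, adjusted P = 5.11e-05 in limma), and its statistic ranked 4 among all tested genes. Psat1 and Phgdh therefore had log2 fold changes of similar size although their order over the tumors differed, and both were called under each of the 25 alternatives run.

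Psph (ENSMUSG00000029446, chr5:129765558-129787449, minus strand), the phosphatase that completes serine, behaved differently. Its levels were 13.5, 14.0 and 11.4 TPM in the WT ovaries and ran from 4.16 TPM in the library labelled MP tumor 10 through a median of 20.6 to 37.7 TPM in MP tumor 1. In 9 of 10 MP tumors Psph was above every WT ovary, and the exception was the lowest library of all. A log2 fold change of 0.59 ± 0.50 (SE) did not pass the threshold (adjusted P = 0.412 in limma). Without the library labelled MP tumor 10, it was 0.81 (adjusted P = 0.105 in limma). Within set A, with 3 MP tumors against the same 3 ovaries, it was 1.16 ± 0.33 (SE) and Psph was called higher (adjusted P = 0.0139 in limma). The 28 reads behind the lowest value are few compared with the 558 to 961 reads in the WT ovaries.

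Of the serine hydroxymethyltransferases, the cytosolic Shmt1 (ENSMUSG00000020534, chr11:60788104-60811718, minus strand) was called higher. It was at 29.1, 32.9 and 23.2 TPM in the WT ovaries and between 51.5 TPM in MP tumor 2 and 395 TPM in the library labelled MP tumor 10, with a median of 128 TPM. All tumors exceeded all ovaries, but the tumors differed from each other by a factor of 7.67. Shmt1 had a log2 fold change of 2.16 ± 0.54 (SE, adjusted P = 0.0137 in limma). The call was lost when WT ovary 1, 2 or 3 was left out (adjusted P = 0.0756, 0.0616 and 0.0977 in limma, log2 fold changes 2.18, 2.27 and 2.03).

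The mitochondrial Shmt2 (ENSMUSG00000025403, chr10:127517123-127522444, minus strand) varied most of the 10 genes among tumors. The WT ovaries were close together at 68.8, 73.5 and 63.1 TPM. The MP tumors spread from 33.0 TPM in MP tumor 2 through a median of 215 to 789 TPM in the library labelled MP tumor 10, a factor of 23.9. In 9 of 10 tumors Shmt2 was above all ovaries and in MP tumor 2 it was below them. A log2 fold change of 1.57 ± 0.64 (SE) did not pass the threshold with all libraries (adjusted P = 0.0997 in limma). Without MP tumor 2 it was 1.86 and called (adjusted P = 0.0115), and without both MP tumor 2 and the library labelled MP tumor 10 it was 1.66 ± 0.32 (adjusted P = 0.00398), whereas within set A it was 0.55 ± 0.65 (SE, adjusted P = 0.474).

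Among the MTHFD enzymes, Mthfd1l (ENSMUSG00000040675, chr10:3973118-4167081, plus strand), which releases formate in mitochondria, was called higher. The WT ovaries were at 16.4, 17.5 and 15.5 TPM, and the MP tumors ran from 21.9 TPM in MP tumor 2 through a median of 52.8 to 101 TPM in the library labelled MP tumor 10. The groups did not overlap, and the lowest tumor was close to the ovaries. The log2 fold change was 1.45 ± 0.44 (SE, adjusted P = 0.0339 in limma). This call sat near the threshold. It was lost without any of the WT ovaries (adjusted P between 0.131 and 0.158) and without MP tumor 3, 6, 7 or 8 (adjusted P between 0.0511 and 0.0545), with log2 fold changes between 1.40 and 1.49 in these fits.

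Mthfd1 (ENSMUSG00000021048, chr12:76255298-76319803, plus strand), the trifunctional cytosolic enzyme, was at 70.3, 75.5 and 51.9 TPM in the WT ovaries and between 51.5 TPM in MP tumor 2 and 195 TPM in MP tumor 6, with a median of 107 TPM. In 7 of 10 tumors it was above all ovaries, in 2 it was within their range and in 1 it was just below it. The log2 fold change of 0.68 ± 0.40 (SE) was not called (adjusted P = 0.243 in limma). Mthfd2 (ENSMUSG00000005667, chr6:83305691-83325908, minus strand), the mitochondrial dehydrogenase and cyclohydrolase that is known for high levels in embryonic and tumor tissue, was at 59.0, 47.6 and 25.9 TPM in the WT ovaries. Its MP tumor levels ran from 11.6 TPM in MP tumor 2 through a median of 52.3 to 143 TPM in MP tumor 8. The groups overlapped widely, with 4 tumors above, 2 below and 4 within the range of the ovaries. The log2 fold change was 0.28 ± 0.63 (SE, adjusted P = 0.775 in limma) with all libraries and -0.86 ± 0.51 (SE, adjusted P = 0.165) within set A, so that its sign depended on the libraries compared.

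Atf4 (ENSMUSG00000042406, chr15:80255184-80257540, plus strand) was already abundant in ovaries, at 327, 377 and 326 TPM. The MP tumors ran from 146 TPM in MP tumor 2 through a median of 381 to 486 TPM in MP tumor 9. Of the tumors, 5 were above, 3 below and 2 within the range of the ovaries. The log2 fold change was -0.01 ± 0.34 (SE, adjusted P = 0.988 in limma), which became 0.72 ± 0.39 (SE, adjusted P = 0.216) with median-of-ratios scaling and -0.27 ± 0.47 (SE, adjusted P = 0.63) within set A. The direction of Atf4 RNA thus depended on the scaling and on the libraries compared. Within set A together with median-of-ratios scaling it was 1.41 (adjusted P = 0.00153), the only 1 of the 25 alternatives in which Atf4 was called.

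Asns (ENSMUSG00000029752, chr6:7675169-7693254, minus strand), the asparagine synthetase whose promoter carries the ATF4 motif shown above, was called higher. It was at 50.1, 55.6 and 28.0 TPM in the WT ovaries. The MP tumors ran from 77.1 TPM in MP tumor 2 through a median of 207 to 318 TPM in MP tumor 6. The groups did not overlap, and the means of 44.6 ± 14.6 TPM (SD, n = 3) and 216 ± 77.0 TPM (SD, n = 10) stood in a ratio of 4.84. The log2 fold change was 2.20 ± 0.40 (SE, adjusted P = 0.0015 in limma), rank 28 by the statistic, and Asns was called under each of the 25 alternatives (adjusted P at most 0.0339).

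**Figure D2:**
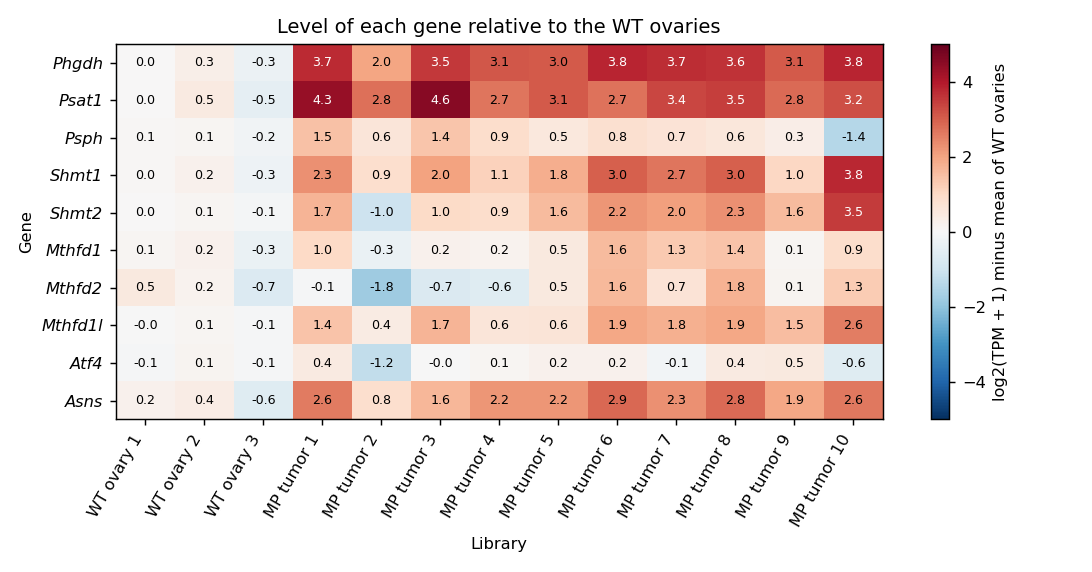
Level of each gene in each library as log2(TPM + 1) minus the mean of the 3 WT ovaries, with red above and blue below that mean and the value in each cell. Phgdh and Psat1 are at least 1.98 above the mean of WT ovaries in every MP tumor, MP tumor 2 has the lowest value among MP tumors for 8 of the 10 genes, and Psph is lowest in the library labelled MP tumor 10.

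These differences depend on how the libraries are scaled, since TPM is a share of the library. Median-of-ratios scaling, which sets the typical gene level between libraries, moved the median over all tested genes from -0.58 to -0.02 (log2 fold change) and that of the 10 genes from 1.51 to 2.21. With it, 7 of the genes were called higher and 0 lower, with Shmt2 (log2 fold change 2.29 ± 0.44, SE) and Mthfd1 (1.40 ± 0.42, SE) added to the other 5, while 7.48% of all tested genes were higher and 10.9% lower. Within set A on the TPM scale, 6 of the genes were higher and 0 lower, with Psph added, against 6.84% higher and 62.4% lower of 15239 tested genes. There the median of all tested genes was -1.44 and that of the 10 genes 1.17. Without MP tumor 2 and the library labelled MP tumor 10, 6 of the genes were higher, with Shmt2 added, and 0 lower, against 4.03% higher of all tested genes. When 1 WT ovary was left out, 3 were higher in each case, Phgdh, Psat1 and Asns, against 0.387% to 0.638% of all tested genes. In the fits of this paragraph that include all WT ovaries, Phgdh, Psat1, Shmt1, Mthfd1l and Asns were thus higher in each, and Shmt2, Mthfd1 and Psph in some. Mthfd1l was not called without MP tumor 3, 6, 7 or 8, as given above.

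**Figure D3:**
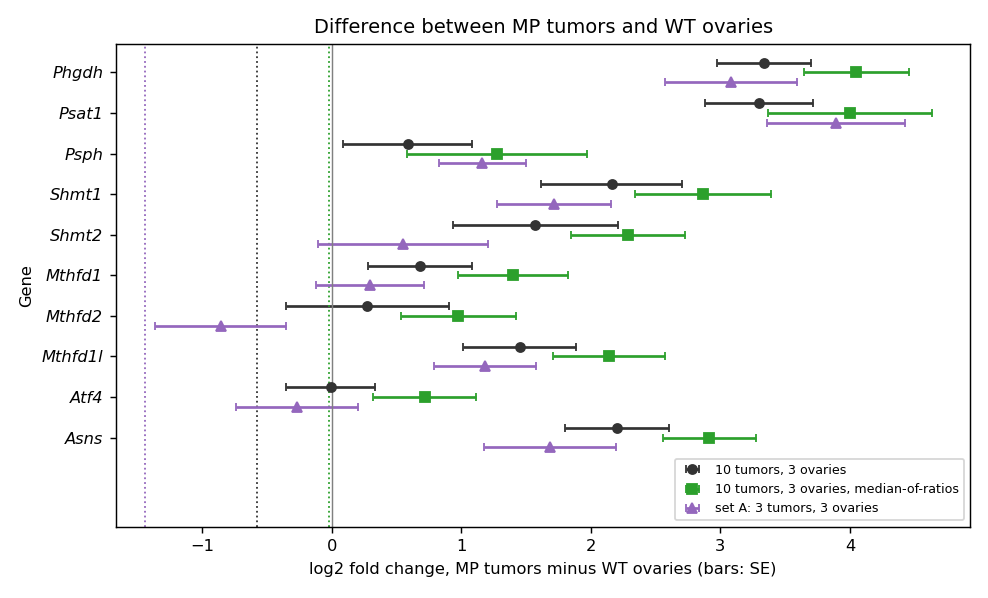
Log2 fold change of the 10 genes, MP tumors minus WT ovaries, with SE bars, for all libraries on the TPM scale (black circles), with median-of-ratios scaling (green squares) and within set A (purple triangles), and dotted lines in the same colors at the median of all tested genes. Each gene lies to the right of the dotted line of its fit, and the markers of Mthfd2 and Atf4 fall on either side of 0.

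A ratio of a pair of genes within 1 library depends little on its scaling (only through the pseudocount), and 5 such ratios of TPM + 1 were put to 2-sided exact permutation tests with 286 arrangements of the 13 libraries (the smallest possible P is 0.0035). The ratio of Asns to Atf4 was higher in MP tumors. On the log2 scale it was -2.68, -2.74 and -3.50 in the WT ovaries and between -1.55 and 0.27 in the MP tumors, with a median of -0.84. All 10 tumors were above all ovaries, and the difference of 2.21 (a factor of 4.63) had an exact P of 0.0035, adjusted over the 5 ratios to 0.0175. It was 1.95 within set A (exact P = 0.1, the smallest that 3 against 3 libraries allow).

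The balance between mitochondrial and cytosolic enzymes was less clear. The log2 ratio of Mthfd1l to Mthfd1 was -1.92 ± 0.21 (SD, n = 3) in the ovaries and -1.15 ± 0.55 (SD, n = 10) in the tumors, higher in 9 of 10 tumors than in any ovary, with an exact P of 0.0455 that did not pass adjustment (0.114). Shmt2 to Shmt1 was at 1.25 ± 0.14 (SD, n = 3) and 0.66 ± 0.62 (SD, n = 10), lower in 9 of 10 tumors than in any ovary (exact P = 0.154). Mthfd2 to Mthfd1 was at -0.63 ± 0.36 (SD, n = 3) and -1.03 ± 0.64 (SD, n = 10), with an exact P of 0.325. Within set A the differences were -1.17 for Shmt2 to Shmt1, -1.15 for Mthfd2 to Mthfd1 and 0.89 for Mthfd1l to Mthfd1 (exact P = 0.1 for each, again the smallest possible). Over all libraries the difference in these 3 ratios did not exceed the spread after adjustment.

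Psat1 to Phgdh was at -0.91 ± 0.17 (SD, n = 3) in the ovaries and -0.94 ± 0.66 (SD, n = 10) in the tumors (exact P = 0.944). Set A stood apart here. The 3 tumors of set A were at -0.30, -0.11 and 0.13, above all ovaries, while the other 7 tumors lay between -1.98 and -0.90, so that the mean difference was 0.81 within set A (exact P = 0.1) and -0.04 over all libraries. Psat1 itself averaged 376 TPM in the tumors of set A and 187 TPM in the other tumors. The part of the IGO number in this was not tested.

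**Figure D4:**
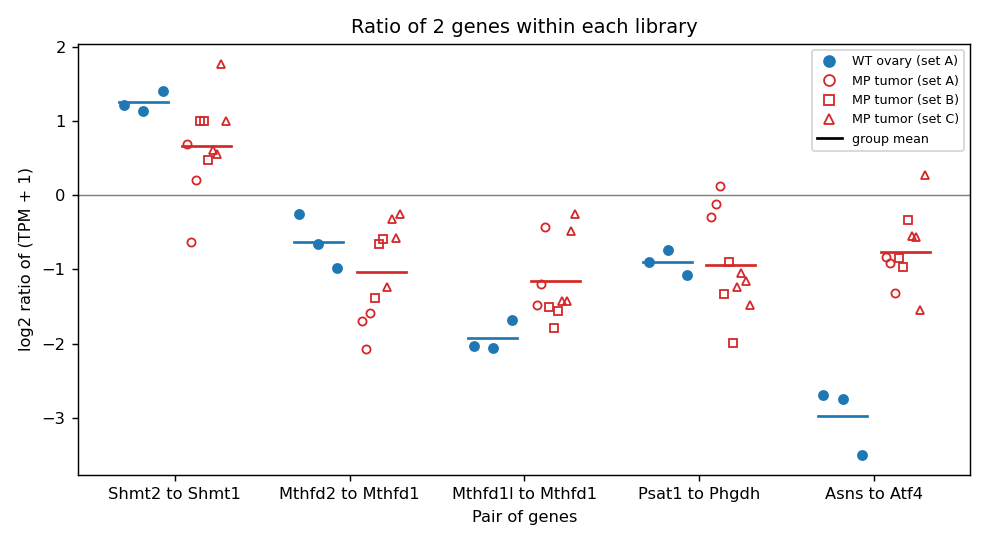
Log2 ratio of TPM + 1 of 5 pairs of genes in each library, with WT ovaries as filled circles, MP tumors as open symbols by set and horizontal lines at group means. Asns to Atf4 separates all 10 MP tumors from the 3 WT ovaries, and in Psat1 to Phgdh the 3 MP tumors of set A lie above the rest.

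The order of the levels within a library also changed. Atf4 was the most abundant of the 10 genes in each of the 3 WT ovaries, with Mthfd1 or Shmt2 next, and Psph was the least abundant. Phgdh was highest in 5 of the MP tumors, Atf4 in 3, Psat1 in MP tumor 3 and Shmt2 in the library labelled MP tumor 10. In 8 of 10 MP tumors Psph was again lowest, and in the others Mthfd2 was. Together the 10 genes took 594 to 773 TPM in the WT ovaries, 729 TPM in MP tumor 2 and 1400 to 2802 TPM in the other MP tumors. In the ovaries, Mthfd1 and Shmt2 did not keep 1 order, and neither did Asns, Phgdh and Mthfd2, so these neighbors were not separated by their spread.

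How the 10 genes varied with each other was examined over the 10 MP tumors. Of the 45 pairs, 37 had a positive Pearson r of log2(TPM + 1), and 19 passed a permutation test with 100000 resamples adjusted over the 45 pairs (18 by Spearman's rho). Over all pairs of tested genes, 71.1% had a positive r, against 82.2% of these 45, and 13.6% had an r of at least 0.72, the lowest r of the 19. Without MP tumor 2 the positive share was 62.4% over all pairs and 62.2% of the 45. With median-of-ratios scaling it was 50% and 88.9% over all 10 tumors, and 49.9% and 91.1% without MP tumor 2. By Pearson r, Mthfd2 and Asns were the closest pair, with r = 0.89 (adjusted permutation P = 0.00675) and rho = 0.89 (adjusted permutation P = 0.00739), and r = 0.76 without the 2 tumors farthest from the median of Mthfd2. Phgdh and Psat1 had r = 0.44 (adjusted permutation P = 0.344) and rho = 0.28 (adjusted permutation P = 0.621), and r = 0.36 without the 2 farthest tumors. Atf4 and Asns had r = 0.62 (adjusted permutation P = 0.126) and rho = 0.33 (adjusted permutation P = 0.603), and r = 0.36 without the 2 farthest tumors.

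The count of pairs that passed the test rested on MP tumor 2, in which most genes were low, since 2 pairs passed without it and 16 to 19 without any other tumor. Without it, 26.7% of the 45 pairs still had an r of at least 0.72, against 10.7% of all pairs of tested genes. With median-of-ratios scaling and without MP tumor 2, 31.1% of the 45 had an r of at least 0.736, against 5.11% of all pairs. With median-of-ratios scaling 13 pairs passed, 28.9% of the 45. Over all pairs of tested genes, 4.55% had an r of at least 0.736, the lowest r of the 13. With the IGO number as a term 15 pairs passed, and the share over all pairs was not computed there. With both the scaling and the IGO number, 0 pairs passed adjustment by the permutation test, and 15 had an unadjusted P under 0.05. The median r of the 45 pairs was 0.56 there. Permutation within the IGO number allows 864 arrangements, so that 1 pair by itself cannot pass adjustment over the 45 pairs. With median-of-ratios scaling Mthfd2 and Asns had r = 0.51 and no longer passed (adjusted permutation P = 0.201), Phgdh and Psat1 had r = 0.87 (adjusted permutation P = 0.00686), and the correlation of Psph with Atf4 went from 0.39 to 0.93 (adjusted permutation P = 0.0045), so which genes vary together depended on the scaling.

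**Figure D5:**
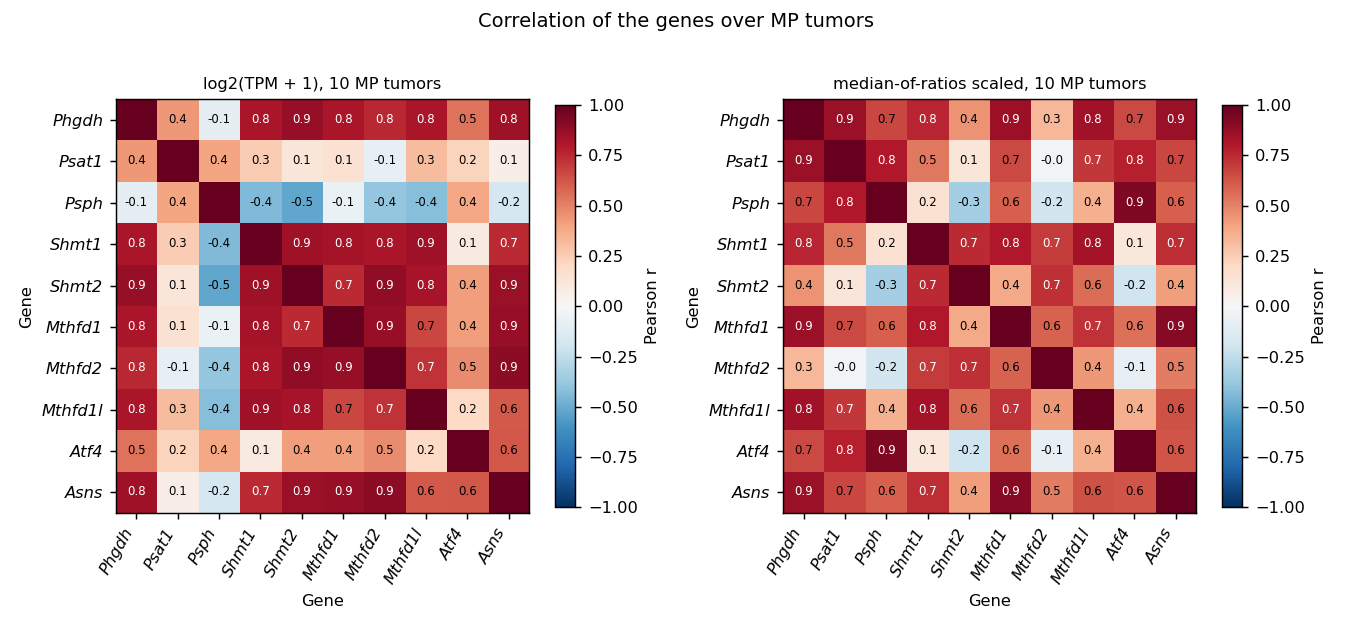
Pearson r between each pair of the 10 genes over the 10 MP tumors, on log2(TPM + 1) at the left and with median-of-ratios scaling at the right, with red for positive and blue for negative r. On the TPM scale Psph has a negative r with 7 of the other 9 genes, 0 of which pass the test, and Psph and Atf4 reach 0.93 after median-of-ratios scaling.

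Some other genes of serine and one-carbon metabolism were called in each direction. Of 31 listed genes, 29 could be tested, and 4 were higher, 3 lower and 22 not called, with a median log2 fold change of 0.42 against -0.58 over all tested genes, of which 2.51% were higher and 14.3% lower. Those higher were Ahcy, which clears the product of methyl transfer (log2 fold change 1.45 ± 0.41, SE, adjusted P = 0.0262 in limma), the folate carrier Slc19a1 (1.71 ± 0.50, adjusted P = 0.0306), the thymidylate synthase Tyms (1.69 ± 0.54, adjusted P = 0.0431) and Gcsh of the glycine cleavage system (0.97 ± 0.32, adjusted P = 0.049), the last named after its value was seen. Those lower were Aldh1l1, a folate dehydrogenase (-3.87 ± 0.79, adjusted P = 0.00386), Ggh, which hydrolyzes folate polyglutamates (-1.87 ± 0.40, adjusted P = 0.00484) and the serine racemase Srr (-2.06 ± 0.55, adjusted P = 0.0192). With median-of-ratios scaling 7 were higher and 2 lower (7.48% and 10.9% of all tested genes), and within set A 6 of 27 were higher and 9 lower (6.84% and 62.4% of all tested genes). With that scaling Ggh (-1.14, adjusted P = 0.188 in limma) and Gcsh (1.69, adjusted P = 0.0557) were not called, while the other genes named here were. The number of higher genes was 0 without WT ovary 1, 2 or 3, against 0.387% to 0.638% of all tested genes.

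Other genes known as ATF4 targets, Asns and the serine genes left out, were then counted. Of 32 listed genes 31 were tested, and 1 was higher and 3 were lower, with a median log2 fold change of -0.39, where 2.51% of all tested genes were higher and 14.3% lower. The glutamine carrier Slc1a5 was higher, at 24.5 ± 3.10 TPM (SD, n = 3) in ovaries and 206 ± 165 TPM (SD, n = 10) in tumors (log2 fold change 2.60 ± 0.65, SE, adjusted P = 0.0139 in limma), a call that was lost without WT ovary 1, 2 or 3, in fits with 0.387% to 0.638% of all tested genes higher. Bcat1, a branched-chain aminotransferase, fell by 3.91 on the log2 scale (adjusted P = 0.00463), the stress-induced Nupr1 fell by 4.34 (adjusted P = 0.0056) and the lipoprotein receptor Vldlr fell by 3.46 (adjusted P = 0.00857). Ddit3 (CHOP), the ATF4 target that marks endoplasmic reticulum stress, was at 60.1 ± 4.44 TPM in ovaries and 23.1 ± 14.7 TPM in tumors, which did not pass the threshold (log2 fold change -1.65 ± 0.60, adjusted P = 0.0729), and Trib3 was at 7.15 ± 1.43 and 7.84 ± 8.10 TPM (adjusted P = 0.75), both named after their values were seen. With median-of-ratios scaling 7 targets were higher and 3 lower (7.48% and 10.9% of all tested genes), and within set A 1 was higher and 18 lower of 31 (6.84% and 62.4% of all tested genes).

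Upstream of Atf4, 0 of 9 tested genes for the eIF2 alpha kinases, their regulators Impact and Gcn1l1, eIF2 alpha and its phosphatase were called in either direction by limma (2.51% higher and 14.3% lower over all tested genes). Their median log2 fold change was -0.58, and that of all tested genes was also -0.58 to 2 decimals. At an unadjusted P under 0.05, 1 was lower, Eif2ak2, the kinase PKR, named after its value was seen (-1.36 ± 0.58, adjusted P = 0.12). At that threshold 5.63% of all tested genes were higher and 27.4% lower. Limma-voom also called 0, with 15.98% of all tested genes higher and 17.5% lower. Within set A, 1 was higher and 6 were lower, where 6.84% of all tested genes were higher and 62.4% lower.

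The tissues compared differ in their cells, and in bulk RNA fewer cells of a type and less RNA per cell cannot be told apart. The summed level of 6 granulosa markers was 3353 to 6277 TPM in WT ovaries and 4.54 to 1507 TPM in MP tumors, with Fshr and Cyp19a1 under 1 TPM in 9 or more tumors. The 5 theca or luteal markers summed to 25024 to 28130 TPM and 7.44 to 824 TPM, with Lhcgr under 1 TPM in 9 or more tumors, and the 6 oocyte markers to 273 to 400 TPM and 1.38 to 22.2 TPM, with all but Gdf9 under 1 TPM in 9 or more tumors. Sums of these 3 lists, and of endothelial markers, were below all WT ovaries in 10 of 10 tumors. The sum of T and NK cell markers was as well, but near the floor, at 1.58 to 2.23 TPM in ovaries and 0 to 0.884 TPM in tumors. Cd3e, Cd8a and Ncr1 did not reach the filter of the fit, and Cd8a alone was above all ovaries in 2 tumors. The 8 epithelial markers of the list summed to 279 to 306 TPM in ovaries and 8.10 to 1199 TPM in tumors, above all ovaries in 3 tumors and below them in 7. Of the 7 that could be tested, 0 were called higher and 3 lower, Krt7, Epcam and Muc16, against 2.51% higher and 14.3% lower over all tested genes. Stromal markers summed to 730 to 1128 TPM in ovaries and 17.5 to 2458 TPM in tumors, above all ovaries in 2 and below in 8, and macrophage markers were below all ovaries in 6 tumors and above in 0. The 4 skeletal muscle markers summed to 20.1 to 24.6 TPM in ovaries and 4.23 to 709 TPM in tumors, above all ovaries in 7. Of the 3 that could be tested, Ckm was called higher (2.51% of all tested genes), Acta1 (log2 fold change 1.47, adjusted P = 0.445 in limma) and Des (-0.77, adjusted P = 0.628) were not, and Myh4 was at 0 in all ovaries and in 7 tumors. The summed level of 5 markers of cycling cells was above all ovaries in 9 of 10 tumors (231 to 407 TPM in ovaries, 300 to 1084 TPM in tumors), and 2 of the 5, Ccnb1 and Cdk1, were called higher (2.51% of all tested genes). Top2a, Pcna and Mki67 were not called. Mki67 was above all ovaries in 5 tumors and below them in 4 (log2 fold change 0.30, adjusted P = 0.796 in limma). Within set A Mki67 was lower (-1.06, adjusted P = 0.0358 in limma), where 62.4% of all tested genes were lower. The part of these differences in the levels of the 10 genes was not tested.

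Some tumors also had chromosome-wide shifts on chromosomes that carry the genes, measured as the median of log2(TPM + 1) relative to WT ovaries less that of all genes. Chromosome 10, with Shmt2 and Mthfd1l, was at -0.47, -0.51 and -0.45 in MP tumors 5, 6 and 8 and within -0.08 to 0.11 in the others. Chromosome 12, with Mthfd1, was at -0.59 in the library labelled MP tumor 10 and -0.34 in MP tumor 5, and chromosome 15, with Atf4, was at 0.30 in MP tumor 5. Noted after their values were seen, chromosome 3, with Phgdh, was at 0.35 in MP tumor 8, 0.29 in MP tumor 3 and 0.28 in MP tumor 2, and chromosome 19, with Psat1, was at -0.33 in MP tumor 2. Chromosome 11, with Shmt1, likewise noted after its values were seen, was at -0.56 in MP tumor 9, where Shmt1 was at 59.2 TPM, the second lowest of the tumors. Shmt2 was at 204, 322 and 338 TPM in the 3 tumors with low chromosome 10, all above the WT ovaries. The part of copy number in the levels of the 10 genes was not tested.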

How the data were processed

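The authors deposited TPM per gene and library in 1 table, without pooling replicates. The submitters' processing notes name Trimmomatic 0.36, STAR 2.5.3a, featureCounts 1.6.3, FastQC 0.11.5 and the builds mm10 and GRCm38, while the protocol text of the labels names a human build, HTSeq and RPKM. The table holds mouse genes and TPM, which was taken as its unit. Libraries were read as 76 bp single-end reads, and whether counting used strand is not given in the sources used here. The deposited gene lengths were used to work reads back from TPM, in steps that came out whole within 0.1 read. Of the 10 genes, 9 had the coordinates of GENCODE M21, and those of Atf4 are as the table gives them. Each column name equals the description of 1 sample, and the table held 0 further sample columns.

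Genes reaching 1 TPM in 3 or more libraries entered the fit as log2(TPM + 1) with limma 3.58.1 (trended, robust) in R 4.3.3, MP tumors against WT ovaries without a covariate. Benjamini-Hochberg adjustment was used throughout, with adjusted P under 0.05 as the call. The added pseudocount makes fold changes of low genes too small. Ratios were compared by exact permutation tests, 2-sided, and correlations by permutation tests. With the IGO number as a term, values were centered within each number and permuted within it. Per-gene precision is limited by the reads, 28 to 19572 for the 10 genes in an MP tumor, and errors given are between libraries. The scripts were tested on simulated data.

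The genes and lists were chosen with earlier results of these data known, so no list is independent support. Named genes are the 10 genes and, from each list, the 3 with the largest statistic in each direction among those called, and a few others are marked where they are named. The alternatives varied the pseudocount, the filter, the scaling, the IGO number, the replicate block, single libraries and the limma options, and 2 were added after the values were seen. Replicate numbers 1 to 3 recur in both groups, with untreated ovaries in one and electroporation tumors in the other, and the labels tie them to no shared animal. Figures were drawn with matplotlib 3.10.9 in Python 3.11.15.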

Additional observations from a re-analysis of the deposited data

Results flagged for a closer look

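Within the 10 MP tumors, the 10 genes on the log2(TPM + 1) scale and the 5 ratios were searched for a library standing apart from the others by its gap to the nearest of them, relative to the whole range. Of these 15 values 2 were flagged, where chance alone gives about 1 in 20. Phgdh in MP tumor 2 was at 164 TPM, below the other 9 tumors at 345 to 587 TPM, and its gap took 0.582 of the range on the log2 scale. In this library the 10 most abundant genes took 55.1% of the TPM, and the part of this in the Phgdh level was not tested. Psph in the library labelled MP tumor 10 was at 4.16 TPM, below the other 9 at 16.5 to 37.7 TPM, with a gap of 0.606 of the range. The same library had the highest Phgdh, Shmt1, Shmt2 and Mthfd1l among the MP tumors.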

How the results depend on the processing

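Phgdh, Psat1 and Asns were higher and called in each of the 25 alternatives. The number of the 10 genes called higher, 5 with all libraries, was 3 to 6 when 1 library was left out (0.387% to 3.71% of all tested genes higher) and 9 within set A with median-of-ratios scaling, an alternative chosen after seeing the data (29.7% higher). Mthfd2 had a log2 fold change of -0.86 within set A, with the IGO number as covariate and with the replicate block (adjusted P = 0.165, 0.237 and 0.155 in limma), and ranged from -0.059 to 0.52 when 1 library was left out. Atf4 was at 0.72 with median-of-ratios scaling, 0.055 with quantile normalization, 0.72 with limma-voom, 1.41 within set A with median-of-ratios scaling, 0.22 without MP tumors 2 and 10 and between -0.065 and 0.13 when 1 library was left out.

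The counts of the lists are to be read against all tested genes. Of these, 2.51% were higher with all libraries, 2.44% with a pseudocount of 0.1, 1.14% without the filter on low values, 0.387% to 3.71% when 1 library was left out, 7.48% with median-of-ratios scaling, 11.02% with quantile normalization, 15.98% with limma-voom and 29.7% within set A with median-of-ratios scaling. The share lower was 14.3% with all libraries, 62.4% within set A, 49.4% with the IGO number as covariate, 56.7% with the replicate block, 17.5% with limma-voom, 35.2% within set A with median-of-ratios scaling and 17.2% without MP tumors 2 and 10, and 3.61% to 19.2% when 1 library was left out. Of the other serine and one-carbon genes, 4 higher became 2 with a pseudocount of 0.1 or without the filter on low values, 7 with median-of-ratios scaling, 14 with quantile normalization or limma-voom, 19 within set A with that scaling and 0 to 6 when 1 library was left out, with 2 called without MP tumor 6, 7 or 8. The 3 lower became 9 within set A, 7 with the IGO number as covariate, 8 with the replicate block, 6 within set A with median-of-ratios scaling and 1 to 3 when 1 library was left out (1 without WT ovary 3). Of the ATF4 targets, 1 higher became 7 with median-of-ratios scaling or limma-voom, 6 with quantile normalization, 8 within set A with median-of-ratios scaling and 0 to 1 when 1 library was left out (0 without WT ovary 1, 2 or 3). The 3 lower became 18 within set A, 17 with the IGO number as covariate, 18 with the replicate block, 5 with limma-voom, 8 within set A with median-of-ratios scaling, 5 without MP tumors 2 and 10 and 1 to 4 when 1 library was left out (1 without WT ovary 3). The cause was not tested.

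The log2 ratio of Psat1 to Phgdh was 0.81 within set A and between -0.16 and 0.078 when 1 library was left out. That of Asns to Atf4 was 1.95 within set A (adjusted exact P = 0.1) and 1.95 to 2.36 when 1 library was left out. Without WT ovary 1, 2 or 3 its adjusted exact P was 0.0758 in each case. With a WT ovary left out, a ratio that alone has the smallest possible exact P cannot pass adjustment. These fits therefore cannot show whether the call holds. The log2 ratio of Mthfd1l to Mthfd1 was 0.67 to 0.89, and called without MP tumor 5 (0.84, adjusted exact P = 0.0455). Correlated pairs numbered 2 with quantile normalization and 2 to 19 when 1 tumor was left out, the 2 being without MP tumor 2.

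Same-numbered WT ovaries and MP tumors did not deviate together (r of -0.10, -0.02 and 0.00 over genes for numbers 1 to 3). Libraries with different numbers had r between -0.063 and 0.098. This check cannot show whether same-numbered libraries share more than a number. With the replicate block, 6 of the 10 genes were higher (6.29% of all tested genes), Psph added (1.16, adjusted P = 0.0237 in limma), and with the IGO number as covariate, at the same value, Psph was not called (adjusted P = 0.0595). Over all tested genes, 433 higher and 2463 lower became 65 to 4533 and 604 to 9803 over the alternatives, and the share of higher genes among those called, 14.95%, was 40.6% with median-of-ratios scaling, 47.7% with quantile normalization and 47.8% with limma-voom. Depth limits Psph and Mthfd1l most, with as few as 28 and 146 reads in an MP tumor.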
